A study of Rattus norvegicus with 47 samples.

Results

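Mitochondrial chaperones and proteases are the proteins that fold imported polypeptides in the mitochondrial matrix and degrade those that fail to fold, and 7 of their genes were read here across rat kidneys that differed in an implanted metal. The 7 genes, chosen by symbol from 22525 genes in the count table, were Hspe1, Hspd1, Hspa9, Trap1, Lonp1, Clpp and Clpx. All 7 passed the filter on low counts and were among the 15868 genes tested. Each rat carried pellets of lead (Pb), of cobalt (Co), of tungsten (W), of depleted uranium (DU), of aluminium (Al) or of tantalum (Ta), and RNA of the kidney was sequenced 12 months after surgery. There were 8 libraries for each metal except Pb, which had 7, and the labels give each library an animal number of its own. Ta, described by the submitters as inert, was the reference, and every Ta animal had also undergone surgery and carried a pellet, so no kidney without an implant was compared. The strain, sex, age and number of pellets are not given in the sources used here. Animal numbers run in a separate range for each metal, and the labels do not say what their order stands for.

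Nuclear genes encode these 7 proteins, and the proteins enter the mitochondrion as unfolded chains. There the Hsp70-type chaperone mortalin (Hspa9) pulls the chains in, the barrel-shaped chaperonin Hsp60 (Hspd1) with its lid Hsp10 (Hspe1) encloses and folds them, and the ATP-dependent proteases Lon (Lonp1) and ClpXP (Clpp and Clpx) remove damaged ones. In cultured mammalian cells, unfolded protein in the matrix raises transcripts of several of these genes, a response called the mitochondrial unfolded protein response, and the kidney tubule is among the tissues richest in mitochondria.

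Hspe1 and Hspd1 lie head to head in the rat genome and share a promoter, and Clpp and Hspa9 are the protease subunit and the chaperone whose transcripts moved in opposite directions in Pb kidneys. The 250 bases before the start of each of these 3 transcription units are therefore shown, 5′ to 3′ on the strand of the gene, from RefSeq promoter sequences of the GRCr8 build. Capitals mark the heat shock letters TTCNNGAA or GAANNTTC, the letters TGATGNAA of an ATF response element and the letters TGCAAT bound by CHOP, searched on both strands. The windows are chr9:64084077-64084326 on the plus strand for Hspe1, chr9:1918789-1919038 on the plus strand for Clpp and chr18:26828399-26828648 on the minus strand for Hspa9.
Hspe1: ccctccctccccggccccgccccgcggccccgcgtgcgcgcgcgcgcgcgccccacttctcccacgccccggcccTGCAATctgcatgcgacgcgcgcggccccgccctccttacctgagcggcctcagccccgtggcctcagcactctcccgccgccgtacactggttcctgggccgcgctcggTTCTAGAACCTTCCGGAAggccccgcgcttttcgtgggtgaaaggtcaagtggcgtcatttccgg
Clpp: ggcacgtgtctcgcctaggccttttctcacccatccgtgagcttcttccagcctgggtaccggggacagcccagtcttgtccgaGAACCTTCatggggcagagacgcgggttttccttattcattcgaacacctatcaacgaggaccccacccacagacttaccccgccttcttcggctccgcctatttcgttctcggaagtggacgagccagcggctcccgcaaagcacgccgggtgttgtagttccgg
Hspa9: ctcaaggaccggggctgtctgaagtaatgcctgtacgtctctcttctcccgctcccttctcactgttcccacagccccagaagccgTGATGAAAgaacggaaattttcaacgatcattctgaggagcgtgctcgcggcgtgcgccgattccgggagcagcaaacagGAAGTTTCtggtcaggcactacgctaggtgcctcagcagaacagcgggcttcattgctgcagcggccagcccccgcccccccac

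The Hspe1 window held 3 heat shock matches that overlap one another, beginning 65, 60 and 55 bases before its start, and 1 CHOP match beginning 175 bases before it. The starts of Hspe1 and Hspd1 are 290 bases apart, and their windows share 211 bases, so the same letters lie 242, 237, 232 and 120 bases before the Hspd1 start. Clpp had 1 heat shock match 166 bases before its start. Hspa9 had 1 at 84 bases and 1 ATF response element at 164 bases, and the Trap1 window had no match of any of the 3 motifs. Of 33469 rat promoter windows of this length, 13.5% held the heat shock letters, 3.4% the ATF letters and 7.22% the CHOP letters. These matches describe the letters only. Promoter sequences were matched for 5 of the 7 genes (not for Lonp1 and Clpx).

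Libraries held 21604755 to 35775818 counts (median 26363810), and the lowest count of any of the 7 genes in a library was 1037, for Clpp, so counting error was small beside the spread between animals. Levels are given as CPM, counts scaled to a common library size with TMM factors. Levels of different genes are not compared, because the table gave no transcript length. A pair of libraries was often the lowest of its group for these genes. DU replicate 6 was the lowest DU library for Hspe1, Hspd1, Hspa9, Trap1 and Clpx, and Ta replicate 4 was the lowest Ta library for Hspe1, Hspd1, Hspa9, Trap1, Lonp1 and Clpx. By the outlier criterion given near the end, DU replicate 6 was flagged for Hspe1, Hspd1 and Clpx, and Ta replicate 4 for Hspd1 only. The summed level of 13 proximal tubule markers in DU was 1781 CPM at its lowest, in replicate 6, and 7749 CPM at the median. Where leaving out both libraries, or DU replicate 6 alone, changed a call among the 7 genes against Ta, the value is given both ways. These alternatives were partly chosen after seeing the data. Kidney identity was checked by these markers, and none of the 13 was at 0 throughout a group.

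Metal pellets differed most in their Hspe1 and Clpp transcripts. Hspe1 rose in all 5 metals against Ta and was highest in Pb. Clpp rose in Co, Al, Pb and DU. Hspd1 and Clpx, which encode the partners of Hspe1 and Clpp in the chaperonin and in the ClpXP protease, changed by at most 0.28 on the log2 scale in any metal. The fit tested each metal against Ta with edgeR's quasi-likelihood test and Benjamini-Hochberg adjustment over all 15868 genes, at a threshold of 0.05, and all 5 comparisons share the 8 Ta libraries. Of the 7 genes 1 was higher in W (Hspe1), where 1.42% of all genes tested were higher and 1.78% were called in either direction. Co had 5 higher (13.6% of all genes higher, 25.8% called), Al 2 (12.8% and 25.2%) and DU 2 (7.89% and 15.3%). Pb had 4 higher and 1 lower, where 24.5% of all genes were higher and 29.2% lower (53.7% called). With only 7 genes these counts are a description beside the shares, with no test of the difference. In the test among all 6 groups each of the 7 genes was called, against 58.4% of all genes, with adjusted p-values from 1.02e-09 for Hspe1 to 0.0218 for Clpx.

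**Figure D1:**
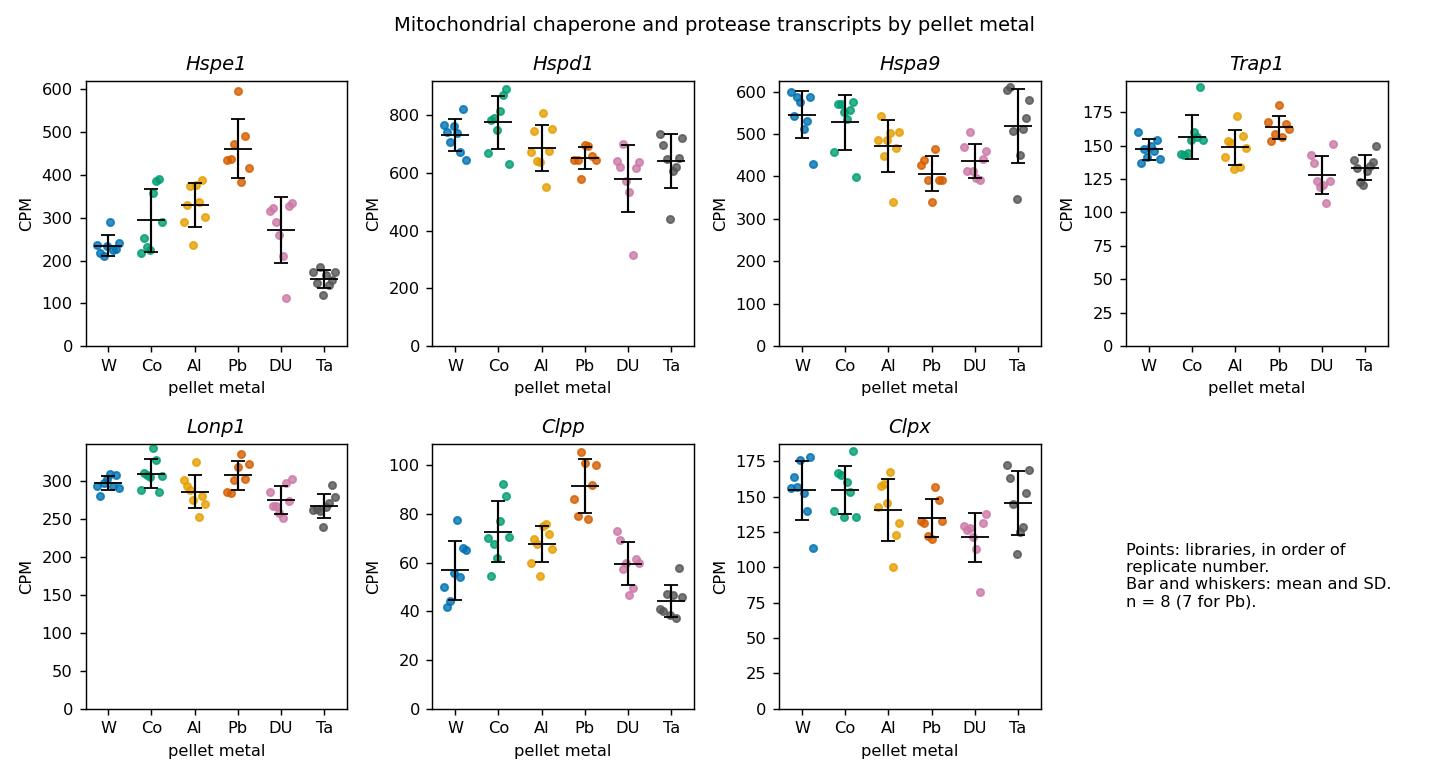
CPM of each gene (vertical axis, starting at 0) by pellet metal (horizontal axis). Points are libraries, and bars with whiskers are the mean and SD (n = 8, 7 for Pb). Hspe1 is above the whole Ta range in every W, Co, Al and Pb library and in 7 of 8 DU libraries.

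Hspe1, the lid of the chaperonin, had 210.0 CPM at the lowest, 231 at the median and 291 at the highest in W kidneys, against 119, 160.5 and 185 CPM in Ta kidneys. All 8 W libraries thus lay above every Ta library. In Co its levels were 218, 272 and 390.3 CPM (lowest, median and highest), in Al 237, 333 and 389 CPM, and in Pb 384, 437 and 595 CPM. The Co libraries fell into 2 sets that did not overlap, 218 to 253 CPM in replicates 1 to 4 and 291 to 390.3 CPM in replicates 5 to 8, and the labels name no batch that would divide them. Groups did not overlap Ta in any of these 3 metals, and the lowest Pb library lay above every W library as well. DU spread widest, with 113 CPM in replicate 6, a median of 304 CPM and a highest value of 334 CPM. Replicate 6 lay below every Ta library and the other 7 above every one. Group means were 462 ± 68.8 CPM in Pb, 329 ± 51.5 in Al, 294 ± 73.6 in Co, 272 ± 76.5 in DU, 235 ± 24.7 in W and 158 ± 20.9 in Ta (SD, n = 8, 7 for Pb).

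The log2 fold change of Hspe1 over Ta was 1.55 ± 0.15 in Pb (SE, edgeR adjusted p = 2.03e-11), 1.06 ± 0.15 in Al (6.77e-07), 0.90 ± 0.15 in Co (3.50e-05), 0.78 ± 0.15 in DU (0.000170) and 0.57 ± 0.15 in W (0.0365). In the order of levels, Pb, Al, Co, DU, W and Ta, only Pb and Al (0.49 ± 0.15, adjusted p = 0.0177) and W and Ta differed as neighbours. Between metals, Pb also exceeded W by 0.97 ± 0.15 (adjusted p = 1.56e-06) and Co by 0.65 ± 0.15 (0.00118), and DU was below Pb by a log2 fold change of -0.77 ± 0.15 (5.35e-05). The DU rise did not rest on replicate 6, which opposed it. It was 0.93 without that library and 0.88 ± 0.12 without DU replicate 6 and Ta replicate 4 (adjusted p = 1.74e-06). Al was above W by 0.49 ± 0.15, which missed the threshold (adjusted p = 0.0557). It passed at nearly the same size without DU replicate 6 (0.48 ± 0.12, adjusted p = 0.0133) and without both libraries (adjusted p = 0.0104). The W call was the least firm. It was lost without W replicate 5, 7 or 8 or Ta replicate 4 or 6, the log2 fold change being 0.53 and the adjusted p 0.109 without W replicate 5.

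Hspd1, the barrel of the same chaperonin, did not follow its partner. Its levels were 630 CPM at the lowest, 788 at the median and 890.2 at the highest in Co, against 439.9, 649.7 and 737 CPM in Ta. Co was its highest group, with 6 of 8 libraries above every Ta library, and the log2 fold change of 0.28 ± 0.10 passed narrowly (edgeR adjusted p = 0.0445). Of 26 other settings, 11 ended this call, among them leaving out Ta replicate 4 or 7 or Co replicate 3, 5, 6 or 7. Without DU replicate 6 and Ta replicate 4 together it was 0.25 ± 0.07 (adjusted p = 0.0129).

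In Pb, where Hspe1 was highest, Hspd1 had 579.7, 646.5 and 698 CPM (lowest, median and highest), all within the Ta range. Its log2 fold change there was 0.03 (95% interval -0.19 to 0.24, adjusted p = 0.855). The other values were 0.19 in W (interval -0.02 to 0.40), 0.10 in Al (-0.11 to 0.31) and -0.14 in DU (-0.35 to 0.07). No neighbours in the order Co, W, Al, Pb, Ta and DU differed. DU was below W by -0.33 ± 0.10 (adjusted p = 0.0186) and below Co by -0.42 ± 0.10 (0.00340), and both calls remained without DU replicate 6 and Ta replicate 4 (-0.24 and -0.33, adjusted p = 0.0223 and 0.00192).

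**Figure D2:**
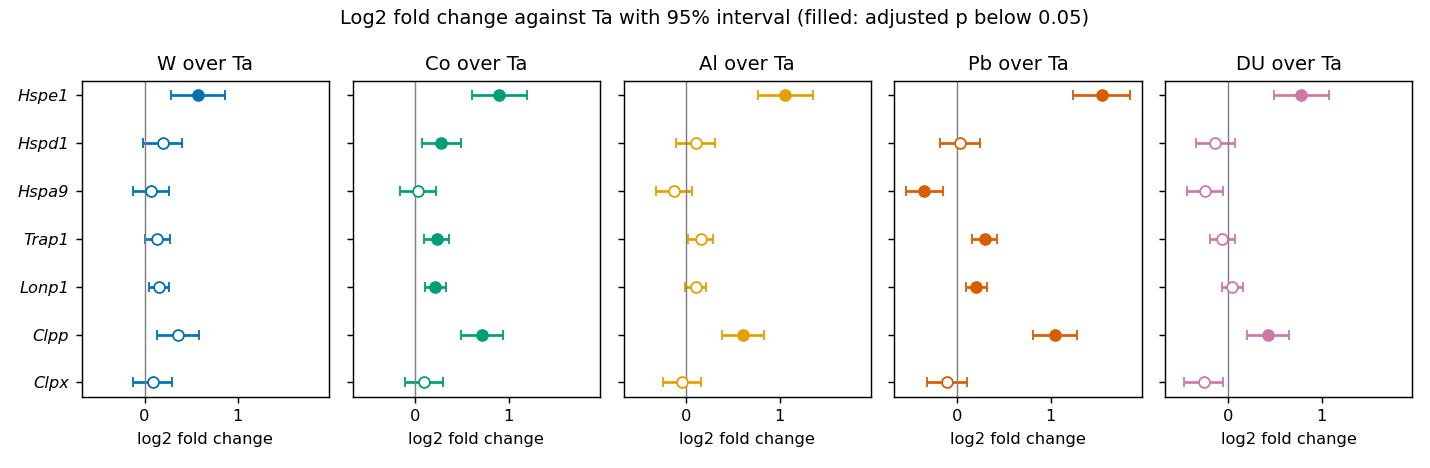
Log2 fold change of each gene over Ta (horizontal axis) with its 95% interval, 1 panel per metal. Filled points passed the edgeR test at an adjusted p of 0.05. Hspe1 and Clpp lie farthest right in every panel, and Hspa9 in Pb is the filled point to the left of 0.

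Within a library the number of Hspe1 counts per Hspd1 count does not depend on library scaling. This ratio was 0.709 ± 0.103 in Pb, 0.485 ± 0.0910 in Al, 0.460 ± 0.0661 in DU, 0.378 ± 0.0736 in Co and 0.323 ± 0.0412 in W, against 0.248 ± 0.0252 in Ta (SD, n = 8, 7 for Pb). The Co sets stood apart here too, at 0.294 to 0.326 in replicates 1 to 4 and 0.438 to 0.462 in replicates 5 to 8. Every Co, Al, Pb and DU library and 7 of 8 W libraries had a ratio above every Ta library. DU replicate 6, the lowest DU library for both genes, was among them, since its lowest group value was 0.357 against a highest Ta value of 0.285. The ratio and the one for Clpp and Clpx were chosen after the levels were seen and are given without a test.

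Hspa9, the import motor and matrix Hsp70, was lower in Pb. Its Pb libraries had 339 CPM at the lowest, 391 at the median and 465 at the highest, against 347, 525 and 611 CPM in Ta, and all 7 lay below the Ta median, though the ranges overlapped. The mean was 406 ± 41.3 CPM in Pb and 519 ± 87.95 CPM in Ta, a log2 fold change of -0.35 ± 0.10 (edgeR adjusted p = 0.00242). Over all genes, 29.2% were called lower in Pb. Pb was also below W (-0.43 ± 0.10, adjusted p = 0.000564) and Co (-0.38 ± 0.10, adjusted p = 0.00397).

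In DU all 8 Hspa9 libraries lay below the Ta median, at 393 to 504 CPM, and the log2 fold change of -0.25 ± 0.10 missed the threshold (adjusted p = 0.0676). Ta replicate 4, at 347 CPM, was the lowest of its group. The DU value was -0.20 ± 0.10 without DU replicate 6 alone (adjusted p = 0.192). Without both libraries it was -0.27 ± 0.09 and passed (adjusted p = 0.0371), and the Pb value was -0.40 ± 0.09 (0.000186). W, Co and Al gave 0.07, 0.02 and -0.14, with adjusted p-values of 0.678, 0.870 and 0.309. In the order W, Co, Ta, Al, DU and Pb no neighbours differed.

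Trap1, the mitochondrial Hsp90, rose by small amounts in Pb and Co. It had 154, 162 and 180.1 CPM (lowest, median and highest) in Pb, against 120.9, 134.1 and 149.8 CPM in Ta, and all 7 Pb libraries lay above every Ta library. The log2 fold change was 0.29 ± 0.07 in Pb (edgeR adjusted p = 0.000318) and 0.23 ± 0.07 in Co (0.0101), where 5 of 8 libraries were above every Ta library. W (0.14, adjusted p = 0.214), Al (0.15, 0.0780) and DU (-0.06, 0.5853) did not pass. DU was below W, Co, Al and Pb, by -0.20, -0.29, -0.22 and -0.35, with adjusted p-values of 0.0258, 0.00171, 0.0259 and 4.21e-05. Without DU replicate 6 and Ta replicate 4 the last value was -0.31 (0.000215) and the value against Co -0.26 (0.00418), and the calls against W (-0.16, adjusted p = 0.0736) and Al (-0.18, adjusted p = 0.0693) were lost. Trap1 in Al passed without DU replicate 6 alone (0.18, adjusted p = 0.0268).

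Lonp1, the Lon protease of the matrix, had coefficients of variation of 3.22% in W to 7.59% in Al, the lowest of the 7 genes in every group except Pb, where it had 6.21%, against 5.41% for Trap1 and 5.98% for Hspd1. Its means were 309 ± 19.0 CPM in Co and 307 ± 19.1 CPM in Pb, against 267 ± 15.7 CPM in Ta (SD, n = 8, 7 and 8). The log2 fold changes of 0.21 ± 0.05 in Co (edgeR adjusted p = 0.00405) and 0.20 ± 0.06 in Pb (0.00214) passed. Of the libraries, 6 of 8 in Co and 5 of 7 in Pb were above every Ta library. The values in W (0.16), Al (0.10) and DU (0.05) did not pass, with adjusted p-values of 0.103, 0.181 and 0.632. The W value was 0.18 and passed without DU replicate 6 (adjusted p = 0.0309), and without that library and Ta replicate 4 it was 0.16 (adjusted p = 0.0737). DU was below Co (-0.17, adjusted p = 0.0204) and Pb (-0.16, adjusted p = 0.0179), and no neighbours in the order Co, Pb, W, Al, DU and Ta differed.

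Clpp, the proteolytic subunit of ClpXP, had 77.8 CPM at the lowest, 91.8 at the median and 105 at the highest in Pb kidneys, against 37.4, 43.5 and 57.7 CPM in Ta kidneys. No Pb library overlapped Ta. In Co its levels were 54.7, 70.3 and 92.2 CPM and in Al 54.7, 68.6 and 75.9 CPM, with 7 of 8 libraries above every Ta library in each. DU (46.8, 59.8 and 73.2 CPM) and W (41.9, 54.8 and 77.8 CPM) overlapped Ta more, with 5 and 3 of 8 libraries above it. Means were 91.6 ± 11.04 CPM in Pb, 72.7 ± 12.5 in Co, 67.6 ± 7.38 in Al, 59.6 ± 8.89 in DU, 56.8 ± 12.2 in W and 44.3 ± 6.60 in Ta.

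The log2 fold change of Clpp over Ta was 1.05 ± 0.12 in Pb (edgeR adjusted p = 3.43e-10), 0.71 ± 0.11 in Co (2.33e-05), 0.61 ± 0.11 in Al (7.73e-05) and 0.43 ± 0.11 in DU (0.00610). W, at 0.36 ± 0.11, missed the threshold (0.0701) and passed without W replicate 2 or 3 or Ta replicate 5, 7 or 8. It also passed without DU replicate 6 (0.39, adjusted p = 0.0331), and without that library and Ta replicate 4 it did not (0.36, adjusted p = 0.0693). Pb exceeded Co, its neighbour in the order Pb, Co, Al, DU, W and Ta, by 0.33 ± 0.11 (adjusted p = 0.0274). It also exceeded Al by 0.44 (0.00608) and W by 0.69 (5.68e-06), and DU was below Pb by -0.62 (2.60e-05). No other neighbours differed.

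Clpx, the unfoldase that feeds ClpP, passed in no metal against Ta. Its means were 121.3 ± 17.2 CPM in DU, 135.1 ± 13.2 in Pb, 140.9 ± 21.9 in Al, 155 ± 17.0 in Co, 155 ± 20.7 in W and 146 ± 22.8 in Ta. The log2 fold changes ran from -0.26 ± 0.10 in DU (95% interval -0.47 to -0.06, edgeR adjusted p = 0.0700) to 0.09 in W and Co, and that of Pb was -0.11 (interval -0.32 to 0.10). DU libraries all lay below the Ta median, and DU was below W (-0.35 ± 0.10, adjusted p = 0.0118) and Co (-0.35 ± 0.10, 0.00969). Only DU was under an unadjusted p of 0.05 against Ta with edgeR. Limma voom called it (-0.24, adjusted p = 0.0242) and DESeq2 did not, and edgeR called it without Ta replicate 4 (-0.28, adjusted p = 0.0436). Without DU replicate 6 it was -0.17 (adjusted p = 0.279). The calls against W and Co remained without DU replicate 6 and Ta replicate 4, at -0.28 (adjusted p = 0.0276) and -0.29 (0.0195).

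Counts of Clpp per Clpx count were 0.688 ± 0.134 in Pb, 0.496 ± 0.0676 in DU, 0.494 ± 0.123 in Al, 0.472 ± 0.0801 in Co and 0.377 ± 0.111 in W, against 0.309 ± 0.0559 in Ta (SD, n = 8, 7 for Pb). Every Pb and DU library, 7 of 8 Co, 7 of 8 Al and 3 of 8 W libraries were above every Ta library. Pb was thus the highest group for both partner ratios.

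**Figure D3:**
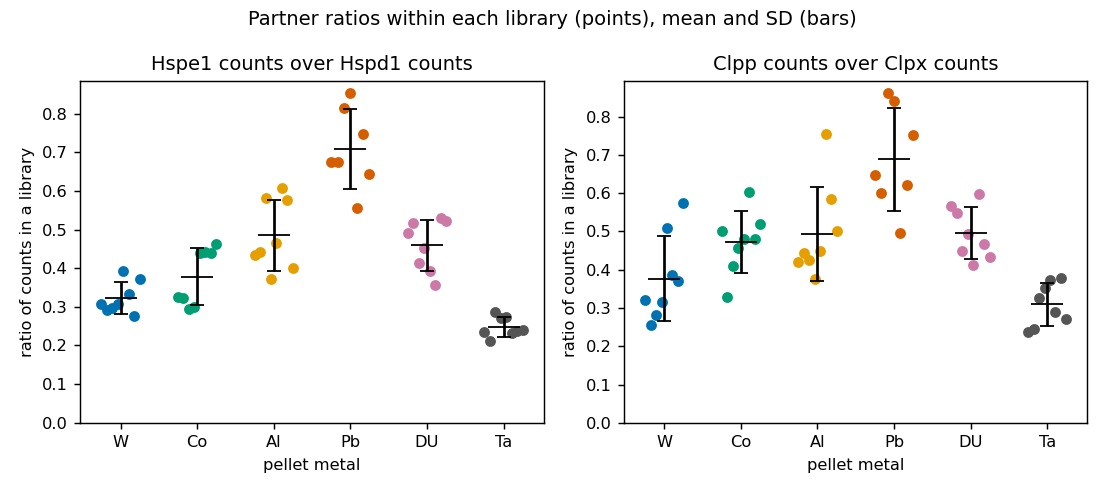
Counts of Hspe1 over counts of Hspd1 (left) and of Clpp over Clpx (right) in each library, by pellet metal. Points are libraries, and bars are the mean and SD. Pb averages 0.709 and 0.688, against 0.248 and 0.309 in Ta.

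Among pairs of the 5 metals without Ta, 22 of the possible gene and pair combinations passed. DU was below W for 4 of the 7 genes (10.8% of all genes were lower), below Co for 5 (12.9%), below Al for 1 (7%) and below Pb for 4 (23.7%). Pb was above W for 2 and below it for 1 (17.5% of all genes higher and 21.5% lower), above Co for 2 and below it for 1 (11.3% and 14.5%), and above Al for 2 (7.98%). Between Co and W, Al and W, and Al and Co, edgeR called 0 of the 7, with 2, 3 and 1 at an unadjusted p under 0.05. Over all genes these 3 comparisons gave 0%, 2.68% and 0% called. Hspa9 in DU against Co lost its call without DU replicate 6 alone (-0.26, adjusted p = 0.0510) and Hspd1 in Pb against Co then gained one (-0.27, adjusted p = 0.0157). Over all 10 pairs DESeq2 called 24 combinations and limma voom 32, against the 22 of edgeR.

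Another property of the libraries moved with Hspe1 and Clpp. Of 75 ribosomal protein genes tested, which encode small proteins, all 75 rose in Pb, 72 in Co, 71 in Al and in DU and 5 in W (11 in W without DU replicate 6 and Ta replicate 4). Of 36 genes of very large proteins, 29 fell in Pb, 18 in Co, 15 in Al, 4 in DU and 0 in W by edgeR (6 at an unadjusted p under 0.05). Both lists were drawn up with earlier results of these libraries known. Over all genes tested, 24.5% were higher in Pb, 13.6% in Co, 12.8% in Al, 7.89% in DU and 1.42% in W. Called lower were 4626 of the 15868 genes in Pb, 1928 in Co, 1967 in Al, 1172 in DU and 58 in W. Summed ribosomal protein levels ran from 42579.6 to 70265 CPM in Pb, against 19809 to 28356 CPM in Ta. The difference between the mean log2 CPM of the 2 lists, called the balance here, was 3.51 ± 0.48 in Pb, 2.71 ± 0.45 in Al, 2.59 ± 0.41 in Co, 2.53 ± 0.31 in DU, 2.17 ± 0.26 in W and 1.75 ± 0.28 in Ta. Co replicates 1 to 4 had a balance of 2.15 to 2.40 and replicates 5 to 8 one of 2.81 to 3.07. W divided by replicate number as well, at 1.75 to 2.11 in replicates 1 to 4 and 2.16 to 2.59 in replicates 5 to 8. The labels name no batch here either.

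All Co, Pb and DU libraries, 7 of the 8 with Al and 4 of the 8 with W exceeded the highest Ta balance. With the balance as a covariate in the same fit, Hspe1 was called in Al (0.77 ± 0.18, edgeR adjusted p = 0.0122), Pb (1.02 ± 0.25, 0.0181) and DU (0.56 ± 0.16, 0.0438), and not in W (0.45, 0.175) or Co (0.63, 0.0561). No other gene of the 7 was called against Ta in that fit, Clpp in Pb having 0.51 ± 0.18 (adjusted p = 0.0795). Between the other metals it called 12 gene and pair combinations, each with DU lower. DU was below Co for Hspd1 (-0.43), Hspa9 (-0.29), Trap1 (-0.28), Lonp1 (-0.17), Clpp (-0.25) and Clpx (-0.37). It was below W for Hspd1, Trap1 and Clpx, below Al for Trap1, and below Pb for Trap1 and Clpx. Shares of all genes for these pairs are not given. Against Ta, the value of Hspa9 in Pb changed sign in that fit, to 0.13 ± 0.15. Over all genes that fit called 404 higher and 252 lower in Pb, 306 and 198 in DU, 270 and 60 in Al, 71 and 50 in Co and 5 and 1 in W. Because the balance itself differed between Ta and the other metals, it and the metal cannot be told apart in full.

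Across the 47 libraries, with each gene and the balance centred on its group means, Clpp went up with the balance (Pearson r = 0.491, Spearman rho = 0.502) and Hspa9 went down (-0.558 and -0.477). Permutation p-values adjusted over the 7 genes were 0.00109 and 0.00343 for Clpp and 0.000350 and 0.00350 for Hspa9. Leaving out the 2 libraries farthest from the median, Al replicate 6 and Pb replicate 4, gave r = 0.482 for Clpp and -0.452 for Hspa9. Clpx also went down (r = -0.427, adjusted p = 0.00777, rho = -0.287, adjusted p = 0.0889, r = -0.330 without the same 2 libraries). For Hspe1 the rank relation passed (rho = 0.486, adjusted p = 0.00450) and the linear one did not (r = 0.275, adjusted p = 0.0956). Because the Co libraries fell into 2 sets, the relations were also computed without Co, over 39 libraries, a choice made after seeing the data. The W libraries, whose balance also divided by replicate number, stayed in. Clpp (r = 0.402, permutation p adjusted over the 7 = 0.0193), Hspa9 (-0.620, 0.000280) and Clpx (-0.522, 0.00294) kept their linear relation. The rho of Clpx was -0.350 (adjusted p = 0.0694). Hspd1, which missed the threshold with all libraries (r = -0.290, adjusted p = 0.0687), passed without Co (-0.379, 0.02145). Its rho without Co did not pass (-0.233, adjusted p = 0.221). Hspe1 gave r = 0.110 (unadjusted permutation p = 0.501) and rho = 0.343 (permutation p = 0.0396 unadjusted and 0.0694 adjusted). Its rank relation was thus weaker without Co and missed the threshold after adjustment. DU replicate 6, with a balance of 3.14 and 113 CPM of Hspe1, lay far from the other points.

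**Figure D4:**
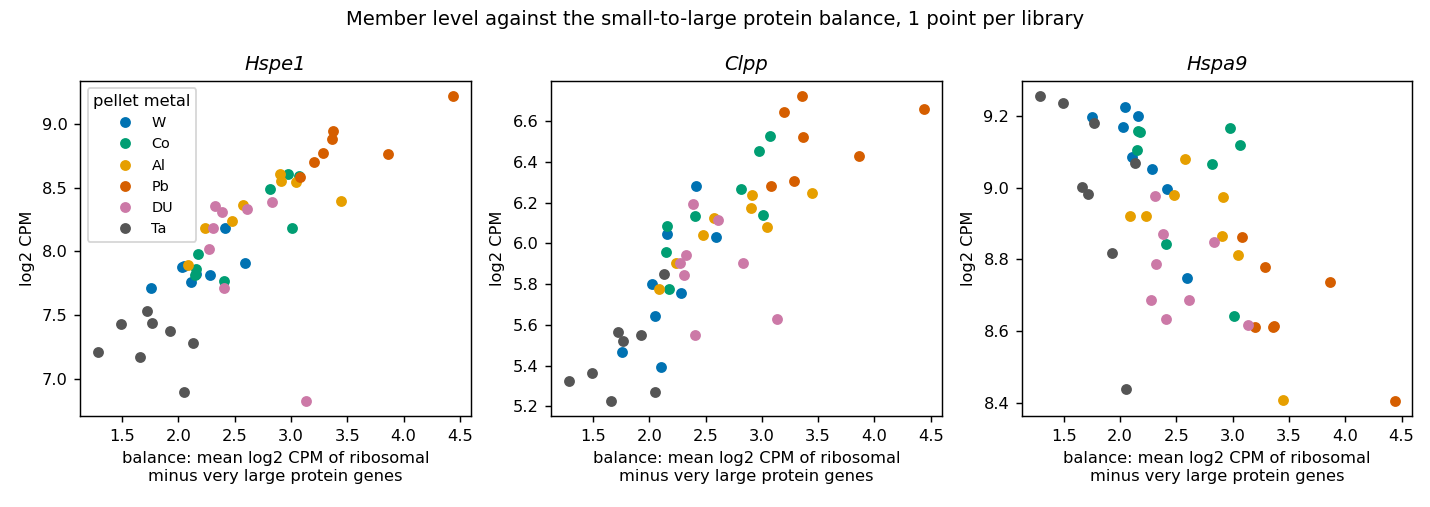
Log2 CPM of Hspe1, Clpp and Hspa9 (vertical axes, which do not start at 0) against the balance (horizontal axis, a difference of mean log2 CPM) in each library, coloured by metal. Pb libraries lie at the right and Ta libraries at the left. The low Hspe1 point at a balance of 3.14 is DU replicate 6.

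Markers of cell types moved too, in both directions. Over all genes, 24.5% were higher and 29.2% lower in Pb. The shares called in either direction were 25.8% in Co, 25.2% in Al, 15.3% in DU and 1.78% in W. Called lower were 1928 of the 15868 genes in Co, 1967 in Al, 1172 in DU and 58 in W. Of 13 markers of the first and middle proximal tubule, a nephron segment rich in mitochondria, 9 fell and 1 rose in Pb and 4 fell and 1 rose in Al. Of the same 13, 1 rose in Co and 0 passed in W or DU by edgeR, with 1 in each at an unadjusted p under 0.05. Their summed level was 5535 to 7133 CPM in Pb, against 7165 to 9668 CPM in Ta. Their mean log2 CPM in W was 8.64 to 8.89 in replicates 1 to 4 and 6.30 to 7.65 in replicates 5 to 8. All 6 podocyte and all 6 endothelial markers fell in Pb and in Al, their summed levels in Pb being 39.9 to 91.0 CPM and 41.5 to 82.2 CPM, against 166 to 407 CPM and 165 to 225 CPM in Ta. Of 9 fibroblast, pericyte and smooth muscle markers, 8 fell in Pb, 7 in Co, 6 in Al and 2 in W, and their summed level was 172 to 314.5 CPM in Pb, against 449.9 to 1192 CPM in Ta. With DU replicate 6 and Ta replicate 4 left out these counts were 8 in Pb, 4 in Co, 4 in Al and 0 in W, and that of podocyte markers in Co was 4, against 1 with all libraries. All 3 tested markers of the distal convoluted tubule fell in Pb (103.1 to 763 CPM in sum, against 737 to 2105 CPM in Ta), and 0 in Al. Without the same 2 libraries all 3 fell in Al too, as did 5 of the 6 endothelial and 5 of the 13 proximal tubule markers. Of 7 macrophage markers 2 rose in DU, where 7.89% of all genes were higher, and 1 without the same 2 libraries. In Pb 2 of the 7 fell, which is near the 29.2% of all genes lower there. No marker of these 6 lists was at 0 in all libraries. The other cell lists differed in direction in Pb. Of 5 markers of the last proximal tubule segment (S3), 2 rose and 1 fell. Among collecting duct markers, 3 of 6 for principal cells rose and 1 fell, and 3 of 5 for intercalated cells rose and 0 fell. Of 5 thick ascending limb markers 1 rose and 2 fell. Of 4 adipocyte markers 2 rose, of 3 erythroid markers 2 fell, and of 6 lymphocyte markers 0 passed. Without DU replicate 6 and Ta replicate 4, 3 adipocyte markers and 1 lymphocyte marker rose in Pb.

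With the proximal tubule mean as a covariate, Hspe1 and Clpp kept their calls in Co, Al, Pb and DU, at 0.86, 1.015, 1.48 and 0.78 for Hspe1 and 0.58, 0.45, 0.82 and 0.40 for Clpp. The W call of Hspe1 was lost (0.55, edgeR adjusted p = 0.0650). So were the calls of Lonp1 in Pb (0.15, adjusted p = 0.0565) and Hspd1 in Co (0.30, adjusted p = 0.0597). The part of the other cell lists in these results was not tested. In whole kidney, fewer cells of a type and less RNA per cell cannot be told apart.

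Some of the 7 genes also varied together within groups. All 21 pairs were examined over the 47 libraries after centring each gene on its group means, with permutation p-values adjusted over the 21. Hspd1 and Clpx had the highest Pearson r, 0.802 (Spearman rho 0.741), followed by Hspa9 and Clpx (0.771, rho 0.695) and Hspd1 and Hspa9 (0.702, rho 0.712). Their adjusted p-values were 4.2e-05 for r and 5.25e-05 for rho, and the raw value of 1e-05 is the smallest these permutations can give. Without the 2 libraries farthest from the median, r was 0.735, 0.698 and 0.749. Hspe1 and Clpp gave r = 0.641 and rho = 0.733 (adjusted p = 4.2e-05 and 5.25e-05), with r = 0.660 without 2 libraries. Hspe1 and Hspa9 (r = 0.146, adjusted p = 0.348), Hspa9 and Clpp (-0.108, 0.509) and Hspd1 and Clpp (0.283, 0.0840) did not pass. Of the pairs with Lonp1, only that with Hspa9 passed for r (0.346, adjusted p = 0.0462). For rho only the pair of Lonp1 with Trap1 passed (0.387, adjusted p = 0.0281).

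The chaperonin partners Hspe1 and Hspd1 gave r = 0.695 and rho = 0.527 (adjusted p = 0.000540 and 0.00129). Without Al replicate 4 and DU replicate 6 their r was 0.502. Clpp and Clpx, the partners of the protease, gave r = 0.0644 and rho = 0.0715 (adjusted p = 0.681 and 0.678), so no relation between them was detectable. Without the Co libraries r was 0.805 for Hspd1 and Clpx, 0.788 for Hspa9 and Clpx, 0.675 for Hspd1 and Hspa9, 0.595 for Hspe1 and Clpp and 0.720 for Hspe1 and Hspd1, all with permutation p-values adjusted over the 21 of at most 0.00354, and 0.0339 for Clpp and Clpx. Points share library depth and scaling, which these correlations do not remove.

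Genes most like each of the 7 were named by the same centred correlation over 47 libraries, among 12917 genes. For Hspe1 they were Esd (r = 0.930), which encodes an esterase, and the ATP synthase and complex III subunit genes Atp5pf (0.929) and Uqcr10 (0.928). For Hspd1 they were the matrix dehydrogenase gene Hibadh (0.937), Etfdh (0.933) and the complex I subunit gene Ndufs1 (0.922), and for Hspa9 the pyruvate dehydrogenase genes Pdha1 (0.886) and Dld (0.878) and the glycosyltransferase gene Stt3b (0.855). Trap1 was most like Atp5mg (0.779), Mdh2 (0.776) and Etfa (0.766). Clpp was most like Lamtor2 (0.857), the mitochondrial ribosome gene Mrpl53 (0.853) and Nsmce1 (0.842), and Clpx like the peroxisomal gene Ehhadh (0.840) and the inner membrane organiser gene Immt (0.829). Lonp1 had the lowest likeness, with Fbxo31 (0.672), Trabd (0.655) and Vps33a (0.648).

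Other genes of mitochondrial protein quality control were read as lists. For every list from here on, the counts stand beside the shares of all genes tested. Those higher were 24.5% in Pb, 13.6% in Co, 12.8% in Al, 7.89% in DU and 1.42% in W, and 29.2% were lower in Pb. Lower in the other metals were 1928 of the 15868 genes in Co, 1967 in Al, 1172 in DU and 58 in W. No test of the difference was run. Of 11 mitochondrial chaperone cofactors and related factors, not all of the matrix, 7 rose in Pb, 6 in Co, 5 in Al, 4 in DU and 2 in W. The Hsp70 co-chaperone gene Dnaja3 was the 1 that fell, in DU. In the order W, Co, Al, Pb and DU their median log2 fold changes were 0.24, 0.31, 0.23, 0.44 and 0.11, against -0.03, -0.07, -0.04, -0.07 and -0.01 over all genes tested. Dnlz, which keeps mortalin soluble, had 102.5 ± 12.1 CPM in Pb and 41.6 ± 6.81 CPM in Ta (log2 fold change 1.30 ± 0.12, edgeR adjusted p = 2.16e-12) and was called in all 5 metals. Grpel1, the nucleotide exchange factor of mortalin, was also called in all 5, from 0.31 in W (adjusted p = 0.0465) to 0.82 in Pb (1.59e-10). Hspa9 itself passed as higher in no metal. Clpb, a disaggregase of the intermembrane space, rose in Co (0.46), Al (0.32) and Pb (0.44) and had -0.20 in DU (adjusted p = 0.182).

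Of 10 tested proteases of the inner membrane and intermembrane space and their scaffolds, 7 rose in Pb, 6 in Co and in Al, 5 in DU and 2 in W, with medians of 0.56 in Pb, 0.34 in Co, 0.37 in Al, 0.22 in DU and 0.24 in W. With DU replicate 6 and Ta replicate 4 left out the counts were 7 in Pb, 8 in Co, 7 in Al, 5 in DU and 5 in W, and those of the cofactors were unchanged except 3 in DU. Htra2, a serine protease of the intermembrane space, had 80.4 ± 5.49 CPM in Pb and 44.7 ± 3.35 CPM in Ta (0.85 ± 0.09, adjusted p = 3.75e-11). Stoml2, a membrane scaffold, rose by 0.71 in Pb, and Afg3l1, an m-AAA protease subunit, by 0.57. The i-AAA protease gene Yme1l1 was the member of this list that fell, in Pb (-0.39).

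Of 7 peptidases that cut or clear import signals, 4 rose in each of Pb, Co and Al, 1 in W and 0 in DU by edgeR (2 higher and 2 lower at an unadjusted p under 0.05 in DU). Medians were 0.45 in Pb, 0.31 in Co, 0.23 in Al, 0.25 in W and -0.04 in DU. The counts in W and DU were 2 and 1 without DU replicate 6 and Ta replicate 4. Immp1l, of the inner membrane peptidase, rose in W, Co, Al and Pb, by 0.57, 0.60, 0.57 and 0.92. Pmpcb, of the main processing peptidase, rose in Co, Al and Pb, by 0.33, 0.23 and 0.47. Xpnpep3, an aminopeptidase, fell in Co, Al and Pb, to 2.57 ± 0.372 CPM in Pb, against 8.29 ± 2.26 CPM in Ta (-1.69 ± 0.25, adjusted p = 3.19e-07), and all 7 Pb libraries lay below every Ta library.

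Of 6 transcription factors of the heat shock and mitochondrial stress responses, 5 rose in Pb, 3 in DU, 2 in Co, 2 in Al and 0 in W by edgeR (2 at an unadjusted p under 0.05), and Hsf2 fell in Pb (-0.34) and DU (-0.35). The counts in Co and W were 3 and 1 without DU replicate 6 and Ta replicate 4. Atf4, which drives the integrated stress response, had 258 ± 34.3 CPM in Pb and 234 ± 121.1 CPM in DU, against 138.9 ± 11.3 CPM in Ta (0.89 ± 0.17 and 0.75 ± 0.16, edgeR adjusted p = 1.70e-05 and 0.00110). DU replicate 6 stood at 525.95 CPM and the next DU library at 247 CPM, and without that library and Ta replicate 4 the DU value was 0.51 ± 0.13 (adjusted p = 0.00388). Ddit3, the gene of CHOP, rose by 0.52 in Co, 0.46 in Al, 0.89 in Pb and 0.68 in DU. Cebpb, its dimer partner, rose by 0.88 in Pb and 1.02 in DU, where it was 0.77 (adjusted p = 0.0189) without the same libraries. Hsf1, the main heat shock factor, rose in Pb (0.24).

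Of 16 nuclear genes read as a measure of mitochondrial content, 9 rose and 2 fell in Pb, 7 rose and 1 fell in Co and likewise in Al, 1 fell in DU, and 0 passed in W by edgeR (8 at an unadjusted p under 0.05). Without DU replicate 6 and Ta replicate 4, 2 rose in W and 2 in DU. Medians were 0.29 in Pb, 0.28 in Co, 0.21 in Al, -0.01 in DU and 0.18 in W. Vdac2, an outer membrane channel, rose by 0.37 in Pb, Sdhb, a complex II subunit, by 0.62 and the import receptor gene Tomm20 by 0.46. The citrate synthase gene Cs fell in Co, Al and Pb (-0.25, -0.22 and -0.44). Of 13 mitochondrially encoded genes, 10 rose in Pb, 6 in Co, 1 in Al, 1 in DU (where 1 fell) and 0 in W by edgeR (3 at an unadjusted p under 0.05). Without the same 2 libraries 11 rose in Pb, 10 in Co, 2 in Al, 1 in DU (where 0 fell) and 1 in W.

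**Figure D5:**
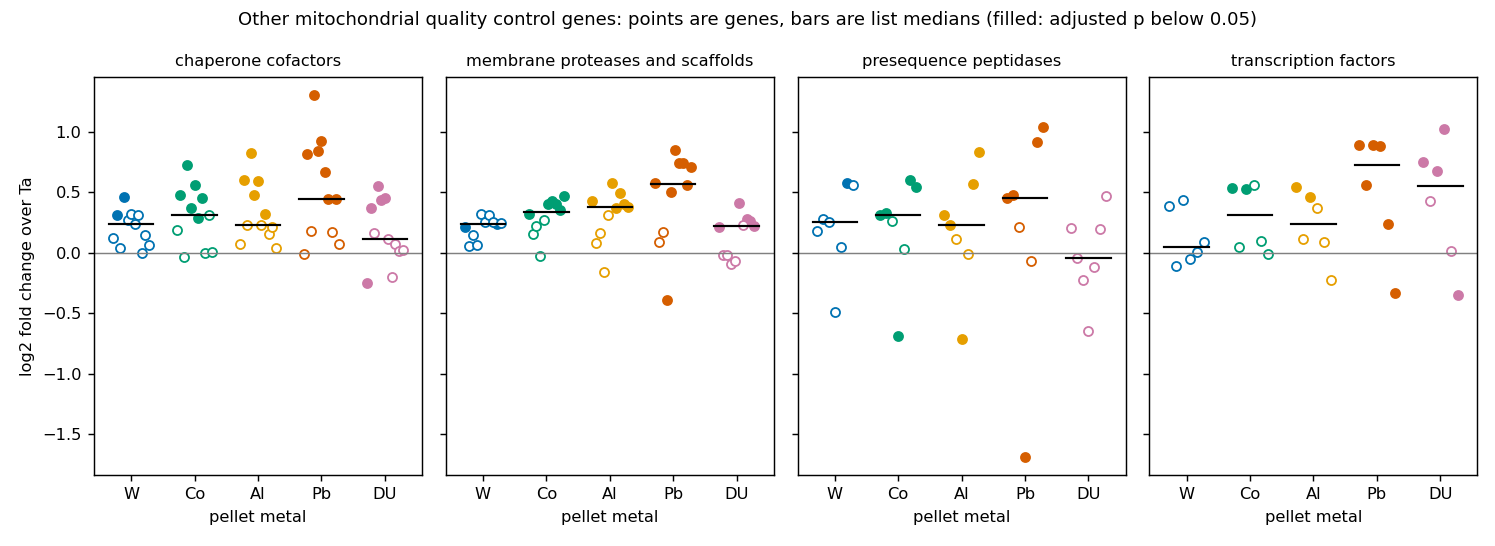
Log2 fold change over Ta (vertical axis) of the genes of 4 lists, by pellet metal. Points are genes, filled where the edgeR adjusted p was below 0.05, and bars are list medians. Pb has the highest median in each panel, from 0.44 for the cofactors to 0.72 for the transcription factors.

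Some values depend on reads that the counting could have split. The RefSeq table of rat genes lists 20 pseudogenes named after Hspd1, 1 after Hspe1 and 2 after Hspa9, and none after the other 4 genes. How reads that map to several places were counted is not given in the sources used here, so the levels of Hspd1, Hspe1 and Hspa9 are uncertain to that extent. Strand use in counting is also not given, and Hspe1 and Hspd1 lie on opposite strands.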

How the data were processed

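RNA-seq covered 47 rat kidneys taken 12 months after implantation. The authors deposited raw counts per gene, which per the submitters' processing notes came from reads aligned with STAR 2.7.2a to mRatBN7.2 and counted with featureCounts of Subread 1.6.4. The annotation, strand setting and treatment of multi-mapping reads are not given in the sources used here. Left out were 29 lines naming no gene, from the broken coordinate text of 5 very long genes.

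The counts were fitted over all 47 libraries with edgeR 4.0.16 (R 4.3.3): filterByExpr, TMM factors and a two-sided quasi-likelihood F test, with Benjamini-Hochberg adjustment over 15868 genes and a threshold of 0.05. Log2 CPM used a prior count of 2. Other settings were RLE and upper quartile factors, no filter, DESeq2 1.42.0, limma 3.58.1 voom with sample quality weights, fits of only the 2 groups compared, replicate number as a block, covariates of the balance and of proximal tubule markers, and fits without each library. Correlations used 100000 permutations within groups. Named were the 7 genes, up to 3 genes per list with the smallest p among all 6 groups, and the 3 genes most like each, of which 1 is not reported here; other named list genes were chosen after their values were seen. The 7 genes and all lists were chosen with earlier results of these data known. No library was a copy of another of its group (161 pairs, lowest chi-square per degree of freedom 15.7). The labels do not say how animals were kept or handled, and p-values measure the spread between these libraries. The scripts were tested on simulated data.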

Additional observations from a re-analysis of the deposited data

Results flagged for a closer look

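In 42 sets of libraries (7 genes in 6 groups) the highest and the lowest library were compared with the rest of the set on the scale of log2 CPM. On that scale 8 values, from 6 libraries, stood farther away than Dixon's 95% criterion allows. They are given below as CPM. Chance flags about 1 in 20 such sets. DU replicate 6 was the lowest of its group for Hspe1 (113 CPM), Hspd1 (317 CPM) and Clpx (82.7 CPM). Ta replicate 4 was the lowest Ta library for Hspd1 (440 CPM). Pb replicate 3 was the lowest Pb library for Hspd1 (580 CPM), and Al replicate 6 the lowest Al library for Hspa9 (339 CPM). W replicate 5 was the highest W library for Hspe1 (291 CPM), and Co replicate 7 the highest Co library for Trap1 (194 CPM).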

How the results depend on the processing

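Hspe1 in Al, Pb and DU kept its direction and its call under every setting run, and in Co under every setting except the balance covariate. With that covariate the number of the 7 genes called was 0 in W and Co and 1 in Al, Pb and DU, metal pairs gave 12 calls against 22, and all genes gave 6 in W, 1.2e+02 in Co (71 higher and 50 lower), 330 in Al, 656 in Pb and 504 in DU. Hspa9 in Al (0.13) and Pb (0.13) and Clpx in Al (0.16) and Pb (0.28) changed sign there. With the proximal tubule covariate all genes called were 23 in W, 2148 in Co and 1751 in Al, 0 of the 7 were called in W, and Clpx in Al became 0.014. The cause of these changes was not tested. DESeq2 called 764 genes and 3 of the 7 in W, against 283 and 1 by edgeR, while upper quartile factors gave 166 genes and no filter 117. Voom called 3 of the 7 in Co, and 4548 genes and 4 of the 7 in DU, and gave -0.016 for Hspa9 in Co and -0.030 for Hspd1 in Pb. Leaving out libraries moved the W counts from 5 (without replicate 5) to 604 genes (without replicate 3) and from 0 to 3 of the 7, and the DU count from 2 to 4 of the 7 (4 without Ta replicate 4). Values near 0 changed sign: Hspa9 in Co ran from -0.0076 to 0.10, Clpx in Al from -0.080 to 0.016, Hspd1 in Pb from -0.020 to 0.075 and Trap1 in DU from -0.087 to 0.0035. Without DU replicate 6 and Ta replicate 4, chosen after seeing the data, W gave 489 genes and 1 of the 7, and without DU replicate 6 alone 3 of the 7.

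Replicate numbers did not pair the libraries (median correlation 0.0116 over 115 pairs with the same number and -0.000744 over 805 others, with 7 libraries best matched to their own number). A block for the number changed no call among the 7 genes, and all genes called were 317 for W, 4288 for Co, 4138 for Al, 8507 for Pb and 2387 for DU. At these depths counting error does not limit the 7 genes.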
